A study of Mus musculus with 8 samples.

Results

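The expression of 10 core marker genes of astrocytes and radial glia was followed in cells from wild type (WT) and S89G-DMP1 mice. The genes were chosen by symbol, with earlier results of these data known, and were matched to mouse Ensembl identifiers. All 10 were among the 47729 genes of the neural stem cell (NSC) count table and the 40562 genes of the astrocyte count table. They were Gfap, Aldh1l1, Aldoc, Slc1a2, Slc1a3, Glul, S100b, Fabp7, Hopx and Clu.

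Dentin matrix protein 1 (DMP1) is an extracellular phosphoprotein that carries a glycosaminoglycan chain. The S89G-DMP1 knock-in mice carry a serine to glycine change at the residue to which this chain is attached. Both genotypes were C57BL/6 mice labelled as 10 weeks old, although the study's methods give another age for the mice that supplied astrocytes. Astrocytes came from the cortex, were grown and passaged in serum-containing medium and were identified by GFAP staining, with 1 library for each genotype. NSC came from the sub-ventricular zone, were grown as neurospheres without serum and were identified by Sox2 and nestin staining, with 3 libraries for each genotype. The NSC libraries are called triplicates in the labels, and nothing says that they came from separate mice. Their p-values therefore measure the spread between these samples, which may be technical.

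Radial glia are the embryonic progenitors that line the ventricles and give rise to neurons and later to astrocytes, and adult neural stem cells of the sub-ventricular zone descend from them. Radial glia, adult neural stem cells and astrocytes share a set of genes, among them the glutamate transporter Slc1a3 and the lipid carrier Fabp7. Mature astrocytes are also marked by a filament protein (Gfap), a second glutamate transporter (Slc1a2) and the enzymes that turn glutamate into glutamine and process one-carbon units of folate. Each of these genes is also used outside astrocytes to some extent. Glul and Clu are the broadest, being transcribed in many tissues.

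The NSC libraries held 2354615 to 2588130 counted reads, and the astrocyte libraries held 13016924 (S89G-DMP1) and 14008670 (WT). Dmp1 itself had 6, 3 and 5 counts in the S89G-DMP1 NSC libraries against 18, 21 and 16 in the WT ones, and 119 counts in the S89G-DMP1 astrocyte library against 2 in the WT one. A point mutation leaves the transcript in place, so these counts do not check the labels. The 2 astrocyte libraries also differed in genes that the genotype label does not cover. Xist had 12172 counts in WT astrocytes and 74 in S89G-DMP1 astrocytes, while the Y-linked gene Ddx3y had 0 and 1277. In the NSC libraries both Xist and Ddx3y were counted in each genotype and neither passed the test (edgeR adjusted p = 0.7979 and 0.9093).

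Several markers of astrocytes and radial glia were low in the library labelled WT astrocytes. In counts-per-million (CPM, scaled for library composition), Gfap stood at 7.11, Slc1a3 at 0.632 and Hopx at 0, and Aqp4, the astrocytic water channel, had 8 counts. Other genes used as astrocyte markers were not low there, with Glul at 336, Clu at 84.3, Apoe at 1160 and Plpp3 at 652 CPM. Whether the label is right was not tested. In the same library 9 fibroblast and meningeal genes summed to 5143 CPM, against 2287 CPM in the S89G-DMP1 library. Below, WT library and S89G-DMP1 library mean the astrocyte libraries so labelled, and values set between them compare those 2 libraries, with no replicate check. In bulk RNA, fewer cells of a type and less RNA per cell cannot be told apart. In the NSC libraries Gfap was low as well, with at most 6 counts in any library, while Slc1a3 and Fabp7 were among the most abundant transcripts.

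In NSC, 4 of the 10 genes were higher in S89G-DMP1 than in WT cells. Aldh1l1 rose 2.05-fold, Hopx 1.81-fold, Fabp7 1.47-fold and Slc1a3 1.15-fold. With edgeR 0 were called lower, as with DESeq2, and 1 (Clu) was lower at an unadjusted p under 0.05. Gfap, at 13 counts in all S89G-DMP1 libraries together and 2 in the WT ones, was too low for the test, and the other 5 genes (Aldoc, Slc1a2, Glul, S100b and Clu) did not pass it. Among all 11194 genes tested with the edgeR quasi-likelihood test, 7.08% were called higher and 8.76% lower at a Benjamini-Hochberg adjusted p under 0.05. The 4 of 9 tested members called higher stood above that share. The members were chosen with earlier results of these data known, so this comparison is a description and not a test. With limma on the authors' TPM, 1 member (Aldh1l1) was called higher. The median log2 fold change was 0.20 over the 9 tested members and 0.00 over all genes.

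**Figure D1:**
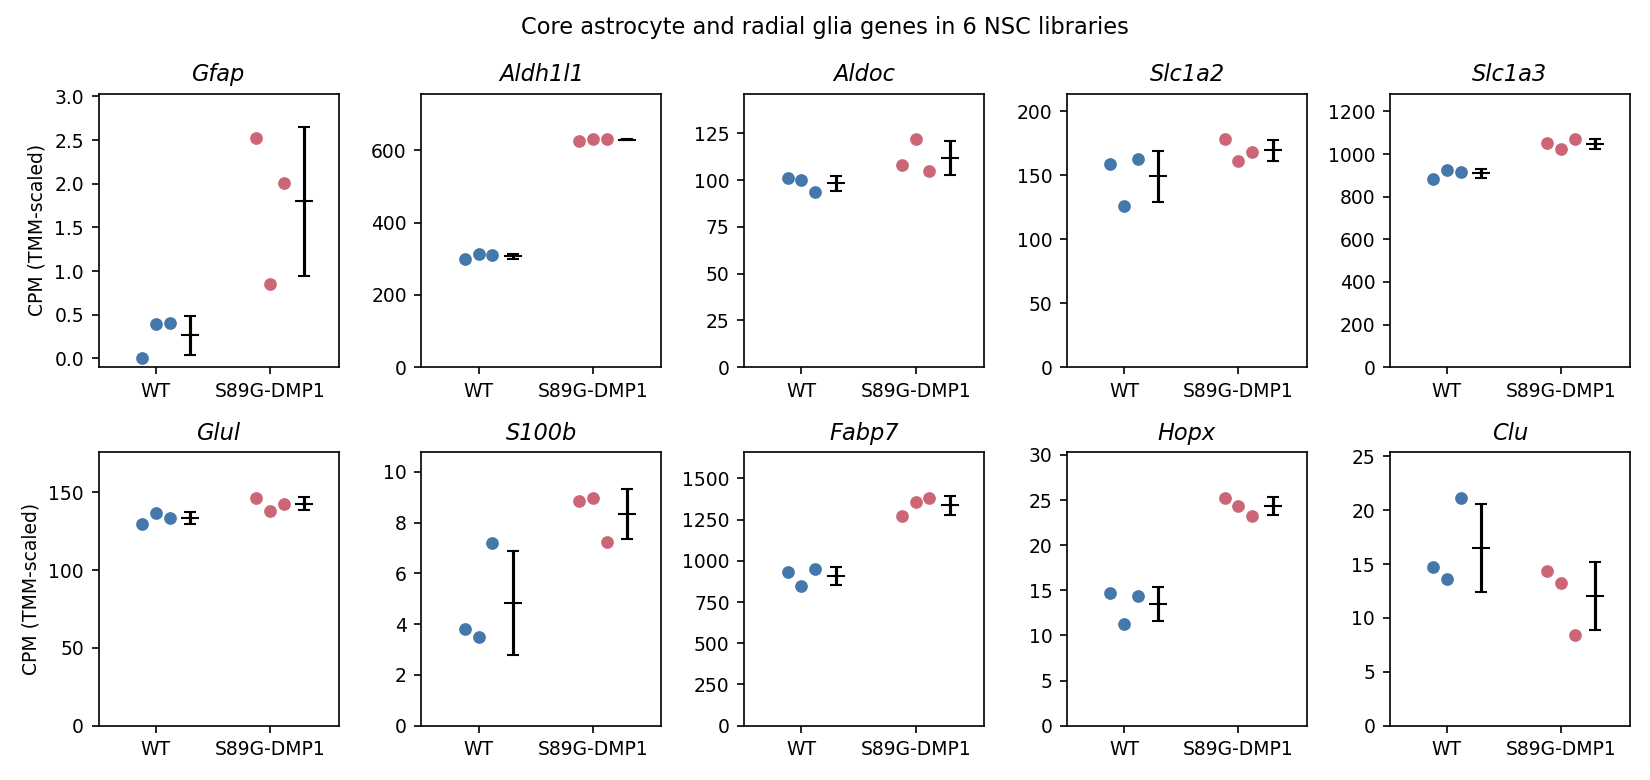
Each panel plots 1 gene in the 6 NSC libraries, with CPM from 0 on the vertical axis, 1 point per library and the mean with its SD at the right of each group (n = 3). The groups are well apart for Aldh1l1, Fabp7 and Hopx, are separated by a narrower gap for Slc1a3, and overlap for Slc1a2 and Clu.

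The 4 genes called higher in NSC are shown first by the sequence just upstream of their start sites, since they moved in the same direction. Gfap, the gene behind the usual astrocyte stain, was not tested in NSC and is shown beside them. The windows are the 250 bases before a RefSeq start site on GRCm38.p6, read 5′ to 3′ on the gene's strand. Capitals mark 4 short motifs on either strand, in which N is any base and stays in lower case. They are a nuclear factor I (NFI) half-site TTGGC, a STAT motif TTCNNNGAA, an RBPJ motif TGGGAA and a TATA box TATAAA.

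Gfap: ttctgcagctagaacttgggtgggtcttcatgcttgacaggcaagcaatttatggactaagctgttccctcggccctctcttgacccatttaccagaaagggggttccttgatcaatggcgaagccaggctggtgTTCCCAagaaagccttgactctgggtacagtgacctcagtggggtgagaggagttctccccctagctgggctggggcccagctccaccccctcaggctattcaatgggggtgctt
Aldh1l1: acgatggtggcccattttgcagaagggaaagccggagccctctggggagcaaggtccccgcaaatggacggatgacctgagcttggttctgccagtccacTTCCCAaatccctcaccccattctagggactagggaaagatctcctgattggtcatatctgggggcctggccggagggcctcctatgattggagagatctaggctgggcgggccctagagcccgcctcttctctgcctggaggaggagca
Slc1a3: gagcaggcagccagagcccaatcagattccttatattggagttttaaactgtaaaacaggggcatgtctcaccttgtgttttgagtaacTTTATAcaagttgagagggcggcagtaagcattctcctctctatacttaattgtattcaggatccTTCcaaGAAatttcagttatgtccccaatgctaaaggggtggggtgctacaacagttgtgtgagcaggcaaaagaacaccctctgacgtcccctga
Fabp7: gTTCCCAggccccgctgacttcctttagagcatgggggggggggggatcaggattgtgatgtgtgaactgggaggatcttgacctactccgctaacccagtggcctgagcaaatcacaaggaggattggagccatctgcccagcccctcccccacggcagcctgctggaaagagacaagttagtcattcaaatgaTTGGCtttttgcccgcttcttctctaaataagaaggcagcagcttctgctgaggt
Hopx: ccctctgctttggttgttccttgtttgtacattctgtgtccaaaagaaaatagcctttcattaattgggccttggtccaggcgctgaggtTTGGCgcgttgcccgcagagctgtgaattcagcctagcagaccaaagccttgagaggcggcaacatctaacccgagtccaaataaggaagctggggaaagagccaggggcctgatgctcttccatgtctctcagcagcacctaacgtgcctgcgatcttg

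The windows lie at chr11:102897201-102897450 for Gfap (minus strand), chr6:90550543-90550792 for Aldh1l1 (plus), chr15:8710808-8711057 for Slc1a3 (minus), chr10:57784673-57784922 for Fabp7 (plus) and chr5:77115124-77115373 for Hopx (minus). Fabp7 and Hopx each held 1 NFI half-site, at -55 to -51 and at -160 to -156 from the start site. The window of a further Hopx start site, at chr5:77095268-77095517 (minus strand, not printed), held none of these motifs. Slc1a3 held the only STAT match of these 5 windows, at -96 to -88, and a reverse-strand TATAAA at -161 to -156. Gfap, Aldh1l1 and Fabp7 each held 1 RBPJ motif, read on the reverse strand as TTCCCA. RBPJ is the DNA-binding partner of Notch, and NFI and STAT factors are known from gliogenesis.

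Over 11 windows of 9 members in the RefSeq set, 6 members held the NFI half-site, 5 the RBPJ motif, 2 the STAT motif (Aldoc and Slc1a3), 1 the TATA box and none the SOX motif ACAATG. The full NFI site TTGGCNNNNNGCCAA, which contains the half-site, was in none. Among all 32851 windows of this length, 41.5% held the half-site, 21.6% the RBPJ motif, 7.02% the STAT motif, 12.4% the TATA box, 10.7% the SOX motif and 0.0365% the full NFI site. A match is a description of these letters only. The 4 genes called in NSC shared no single motif of this set.

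Gfap, the intermediate filament protein of astrocytes (chr11:102887336-102900912, GRCm38), had 6, 2 and 5 counts in the S89G-DMP1 NSC libraries and 0, 1 and 1 in the WT ones. This corresponds to 2.53, 0.856 and 2.01 CPM against 0, 0.388 and 0.399 CPM. The genotypes did not overlap, but every value was a handful of reads. The ratio of the summed counts was 6.72, with a counting interval of 1.52 to 61.4 that covers counting error only. In the fit without the filter on low counts, the edgeR adjusted p was 0.0644.

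Among the enzymes, Aldh1l1 (chr6:90486427-90600203), which oxidises 10-formyltetrahydrofolate and is the most used pan-astrocyte marker, stood at 627, 630 and 631 CPM in S89G-DMP1 NSC. The WT libraries were at 299, 312 and 310 CPM. The 2 groups were far apart, and the libraries within each lay close together, with means of 629 ± 2.28 and 307 ± 7.07 CPM (SD, n = 3). The log2 fold change was 1.03 ± 0.05 (SE), a 2.05-fold higher level, with an edgeR adjusted p of 5.8e-25. By p it was gene number 6 of all 11194 tested.

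Aldoc (chr11:78322968-78327781), the brain form of the glycolytic enzyme aldolase, had 108, 122 and 105 CPM in S89G-DMP1 NSC and 101, 100.2 and 93.9 CPM in WT NSC. All S89G-DMP1 libraries were above all WT libraries, by a gap smaller than the spread of the S89G-DMP1 group. The log2 fold change of 0.18 ± 0.08 (SE) did not pass the test (edgeR adjusted p = 0.1244), and its 95% interval was 0.02 to 0.35. Without S89G-DMP1 replicate 2 it was 0.12.

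Glul (chr1:153899944-153909723), glutamine synthetase, had 147, 138 and 143 CPM in S89G-DMP1 NSC and 129, 137 and 134 CPM in WT NSC. The groups nearly touched, and the log2 fold change of 0.10 ± 0.07 (SE) was within the error (edgeR adjusted p = 0.4115, 95% interval -0.05 to 0.24). Among the 3 enzymes, only Aldh1l1 passed the test.

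The glutamate transporters clear glutamate from the extracellular space into glia. Slc1a3 (GLAST, chr15:8634124-8710764) stood at 1050, 1023 and 1070 CPM in S89G-DMP1 NSC and at 885, 927 and 918 CPM in WT NSC. The groups did not overlap, with means of 1048 ± 23.7 and 910 ± 22.1 CPM (SD, n = 3). The log2 fold change was small at 0.20 ± 0.05 (SE) and passed the test (edgeR adjusted p = 0.0011). On log2(TPM + 1) limma did not call it (adjusted p = 0.1615).

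Slc1a2 (GLT-1, chr2:102658659-102790784) had 178, 161 and 168 CPM in S89G-DMP1 NSC and 158, 126 and 163 CPM in WT NSC. The lowest S89G-DMP1 library lay below the highest WT library. Its log2 fold change of 0.19 ± 0.07 (SE) was close in size to that of Slc1a3 but did not pass the test (edgeR adjusted p = 0.0808). Single WT libraries moved this value: the adjusted p was 0.0397 without WT replicate 1 and 0.0303 without WT replicate 3, while without WT replicate 2 the log2 fold change was 0.07 (adjusted p = 0.6197).

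S100b (chr10:76253853-76261159), a calcium-binding protein made by astrocytes and by other glia, was rare in NSC. It had 21, 21 and 18 counts in S89G-DMP1 libraries and 9, 9 and 18 in WT libraries. On the CPM scale the lowest S89G-DMP1 library (7.22) was just above the highest WT library (7.19), so the groups were all but touching. The log2 fold change was 0.78 ± 0.30 (SE), with a 95% interval from 0.18 to 1.38, and the edgeR adjusted p was 0.0686. WT replicate 3 decided this value: without it the log2 fold change was 1.18 and the adjusted p 0.0184.

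Of the radial glia genes, Fabp7 (brain lipid-binding protein, chr10:57784881-57788450) had 1272, 1357 and 1384 CPM in S89G-DMP1 NSC and 933, 848 and 949 CPM in WT NSC. No library of one genotype reached the range of the other. The means were 1337 ± 58.3 and 910 ± 54.2 CPM (SD, n = 3), a log2 fold change of 0.56 ± 0.05 (SE), or 1.47-fold (edgeR adjusted p = 2.2e-14). In the TPM values of the authors (transcripts-per-million), made separately from the counts, Fabp7 stood at 1957, 3067 and 4420 in S89G-DMP1 NSC and at 2464, 1416 and 3036 in WT NSC. These values overlapped between genotypes and spread more than 2-fold within each. The call on Fabp7 thus held on the counts and not on the TPM values (limma on log2(TPM + 1), adjusted p = 0.6343).

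Hopx (chr5:77086988-77115121), an atypical homeodomain protein of radial glia and adult neural stem cells, had 60, 57 and 58 counts in S89G-DMP1 libraries and 35, 29 and 36 in WT libraries. In CPM these were 25.3, 24.4 and 23.3 against 14.7, 11.3 and 14.4, with no overlap. The log2 fold change was 0.85 ± 0.18 (SE), or 1.81-fold (edgeR adjusted p = 2.2e-04). In the authors' TPM, Hopx had 82.2, 85.3 and 27.2 in S89G-DMP1 NSC and 47.5, 36.1 and 50.001 in WT NSC, so that S89G-DMP1 replicate 3 fell below all WT libraries on that scale and only on that scale. The limma test on log2(TPM + 1) did not call it (adjusted p = 0.7284).

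Clu (clusterin, chr14:65968483-65981547), a secreted chaperone, was the one member with a negative value in NSC. It had 14.3, 13.3 and 8.42 CPM in S89G-DMP1 NSC and 14.7, 13.6 and 21.2 CPM in WT NSC. The groups overlapped, and the log2 fold change of -0.47 ± 0.21 (SE) did not pass the test (edgeR adjusted p = 0.1326). Its 95% interval was -0.89 to -0.04 before adjustment. The value rested in part on single libraries, at -0.24 without WT replicate 3 and -0.26 without S89G-DMP1 replicate 3.

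Over all 9 tested members, every S89G-DMP1 library was above every WT library for 7 and the groups overlapped for 2. Among all tested genes, 14.8% had every S89G-DMP1 library above. S100b, among the 7, passed the low-count filter through its S89G-DMP1 libraries and was separated by only 7.22 against 7.19 CPM. It was not tested when at least 10 counts were required in every library. For a single gene, an exact permutation test of 3 against 3 libraries cannot give a two-sided p below 0.1, so the calls rest on the spread shared over all genes in the edgeR fit. The summed level of the 10 genes was 3433 to 3542 CPM in S89G-DMP1 NSC and 2479 to 2611 CPM in WT NSC. Of the summed difference of 942 CPM, Fabp7 gave 45.4%, Aldh1l1 34.2% and Slc1a3 14.7%, together 94.3%.

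In the astrocyte cultures, 8 of the 10 genes were higher by 2-fold or more in the library labelled S89G-DMP1 than in the library labelled WT, S100b was lower by 2-fold or more and Glul was within 2-fold. Of the 15680 genes that reached 10 counts in one or both libraries, 17.3% were higher by 2-fold or more and 12.8% lower by as much. The median log2 ratio was 4.13 over the 10 members, also with Hopx placed at its bound, and 0.01 over all genes. Scaling by library size alone moved the median of all genes to 0.30. There is 1 library per genotype, so no test was made, and the intervals below cover counting error between these 2 libraries only.

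**Figure D2:**
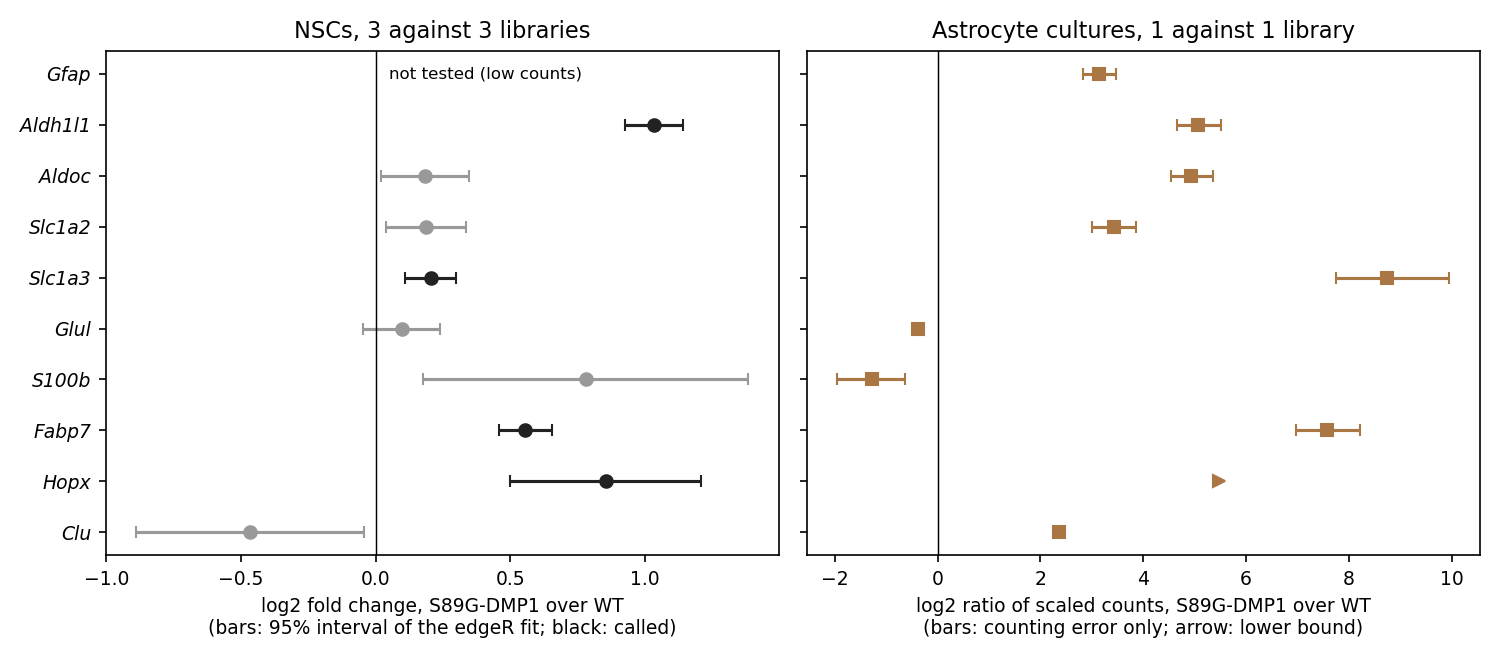
The left panel plots the edgeR log2 fold change (S89G-DMP1 over WT) of each gene in NSC with its 95% interval, black where the gene was called. The right panel plots the log2 of the ratio of scaled counts in the astrocyte libraries with a counting interval, and the arrow for Hopx marks a lower bound; Glul and S100b lie left of 0 and all others right of it.

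Of the members with counts in both astrocyte libraries, Slc1a3 had the largest ratio, with 3877 counts in the S89G-DMP1 library and 8 in the WT library, or 270 against 0.632 CPM. The ratio was 426 (counting interval 216 to 988). Slc1a2, the other glutamate transporter, had 621 and 51 counts, a ratio of 10.7 (8.04 to 14.5). Per kilobase, the WT library held more Slc1a2 than Slc1a3 and the S89G-DMP1 library the reverse. On that scale the ratio of Slc1a3 to Slc1a2 was 6.23 in the S89G-DMP1 astrocyte library, within the 5.57 to 7.33 of the 6 NSC libraries, and 0.157 in the WT astrocyte library.

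The radial glia genes followed. Fabp7 had 4950 and 23 counts, or 344 and 1.82 CPM, a ratio of 189 (126 to 299). Hopx had 152 counts in the S89G-DMP1 library and 0 in the WT library, which makes it at least 44.6-fold higher against a floor of 3 counts. Both genes, which mark radial glia more than mature astrocytes, thus had 23 counts or fewer in the WT library.

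Among the enzymes, Aldh1l1 had 1792 and 47 counts, a ratio of 33.5 (25.1 to 45.8), and Aldoc had 1838 and 53, a ratio of 30.5 (23.2 to 40.9). Glul went the other way, with 3709 counts in the S89G-DMP1 library and 4247 in the WT library, or 258 and 336 CPM, so that the WT library was 1.30-fold higher (1.25 to 1.36). With library size alone as the scaling, the log2 ratio of Glul was -0.09 in place of -0.38. Glutamine synthetase was the one member within 2-fold between these libraries, and it was abundant in both.

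Gfap had 901 counts in S89G-DMP1 astrocytes and 90 in WT astrocytes, or 62.6 and 7.11 CPM, a ratio of 8.81 (7.08 to 11.1). Clu was counted well in both, with 6257 and 1067 reads, or 435 and 84.3 CPM, and a ratio of 5.16 (4.83 to 5.51). S100b was rare in both, with 30 and 64 counts, and was 2.43-fold higher in the WT library (1.55 to 3.88). Its fold fell under 2 when library size alone was used. Glul and Clu were the only members with over 100 counts in the WT library.

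The summed level of the 10 genes was 1678 CPM in the S89G-DMP1 astrocyte library and 447 CPM in the WT one, and Glul made up most of the latter. Clu gave 28.5% of the summed difference of 1231 CPM, Fabp7 27.8% and Slc1a3 21.8%. Markers of other cells also differed between the libraries. The fibroblast and meningeal genes are given above. The 6 mural genes had a median log2 ratio of -1.68, but their sum was higher in the S89G-DMP1 library (2733 against 1950 CPM) through the smooth muscle actin Acta2, with 35539 and 9152 counts, and the 6 endothelial genes counted a median of -1.08. The ependymal transcription factor Foxj1 had 3063 counts in the S89G-DMP1 library and 6 in the WT library. Of 6 ependymal genes 4 were counted and 3 of these were higher by 2-fold or more in the S89G-DMP1 library, as were 4 of 5 counted neuron genes and 3 of 8 oligodendrocyte lineage genes. The 8 microglia genes summed to 852 CPM in the S89G-DMP1 library and 582 CPM in the WT one. The part of cell makeup and of the Xist and Y-linked difference in the astrocyte values was not tested, and with 1 library each they cannot be told apart from genotype.

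In the NSC libraries the microglia, endothelial, mural, ependymal and fibroblast lists were low, with sums of at most 193 CPM. Neuron genes summed to 1217 to 1364 CPM, mostly Map2 (means of 1172 in S89G-DMP1 and 1140 in WT). Oligodendrocyte lineage genes summed to 3758 to 4042 CPM, mostly Olig1 (2571 and 2498) and Olig2 (1169 and 1106). The neuron genes Dcx, Rbfox3 and Stmn2 were under the filter, as were Sox10, Mbp, Mog and Mag of the oligodendrocyte lineage. All 8 microglia genes were under the filter and 6 of them were at 0 in every library. Of 9 fibroblast and meningeal genes 2 were tested, and Thy1, which neurons also express, was called lower (log2 fold change -1.12, edgeR adjusted p = 7.7e-18). Of 5 tested neuron genes 2 were called lower, the synaptic vesicle protein Syt1 (-3.00, adjusted p = 1.3e-23) and the RNA-binding protein Elavl3 (-0.43, adjusted p = 0.0018). Of 6 tested oligodendrocyte lineage genes, the progenitor genes Pdgfra (-0.84, adjusted p = 0.0040) and Cspg4 (-0.56, adjusted p = 1.1e-08) were called lower. The receptor Flt1 was the 1 endothelial gene tested and was called higher (1.79, adjusted p = 0.0014). It was rare, with means of 5.70 CPM in S89G-DMP1 NSC and 1.59 CPM in WT NSC. The call held with DESeq2. It was lost when at least 10 counts were required in every library, and with limma on the TPM values. Of the mural and ependymal genes 1 each was tested and 0 were called by edgeR or DESeq2, also at an unadjusted p under 0.05. The part of these changes in the values of the core genes was not tested.

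The level of each gene, per kilobase of the transcript length implied by the authors' FPKM values, put the core genes in a different order in each group. In WT NSC, Fabp7 was first at 1081 ± 64.3 RPKM (reads per kilobase, scaled like CPM; SD, n = 3), followed by Slc1a3 (528 ± 12.8), Aldh1l1 (174) and Glul (138). Slc1a2 (86.8) and Aldoc (84.8) came next and did not differ beyond their spread with this length. Clu (18.6), Hopx (11.2), S100b (3.25) and Gfap (0.141) were last.

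In S89G-DMP1 NSC the order was the same down to Aldoc, with Fabp7 at 1588, Slc1a3 at 608, Aldh1l1 at 357 and Glul at 147. Slc1a2 (98.4) and Aldoc (96.4) again did not differ beyond their spread with this length. Hopx (20.3) and Clu (13.5) changed places, ahead of S100b (5.63) and Gfap (0.962). Fabp7 stood above 99.9% of all genes with a count in either genotype, and Gfap above 9.0% of them in WT NSC and 28.4% in S89G-DMP1 NSC.

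The S89G-DMP1 astrocyte library was led by Clu (490), Fabp7 (409), Glul (266) and Slc1a3 (156). Aldoc (110), Aldh1l1 (70.7), Gfap (33.5), Slc1a2 (25.1), Hopx (8.83) and S100b (1.41) followed. In the WT astrocyte library only Glul (346) and Clu (94.98) were high, above 98.9% and 94.1% of genes with a count. Gfap (3.81), Aldoc (3.61), S100b (3.41), Slc1a2 (2.34), Fabp7 (2.16) and Aldh1l1 (2.11) lay in a narrow low band, near or below the middle of all genes, with Slc1a3 at 0.367 and Hopx at 0. The astrocyte and NSC tables were made by different pipelines, so levels across them are given side by side and were not tested. The order of some genes depended on the length used: with the full exon length, Aldh1l1 (139) stood above Slc1a3 (123) in S89G-DMP1 NSC. With that length Aldoc also stood above Slc1a2, at 30.2 ± 1.22 against 11.4 ± 1.52 in WT NSC. In S89G-DMP1 NSC these 2 genes were at 34.3 ± 2.75 and 12.9 ± 0.643 (SD, n = 3).

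**Figure D3:**
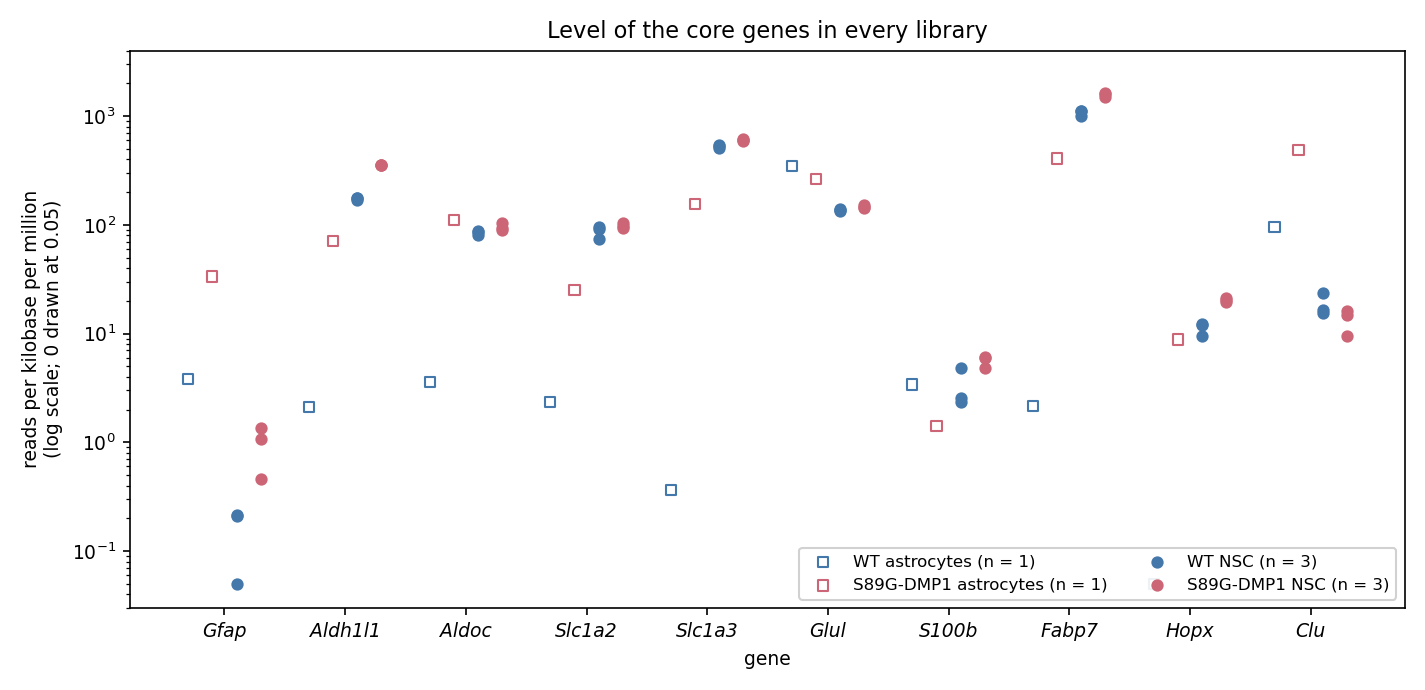
The level of each gene is plotted in every library as RPKM on a log axis, with squares for the astrocyte libraries (1 per genotype) and circles for the NSC libraries (3 per genotype), and with 0 drawn at 0.05. The WT astrocyte squares lie near or below 4 for all genes but Glul (346) and Clu (94.98), and for Gfap and Clu the NSC circles lie below both astrocyte squares.

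Other genes of the same cells were read from lists. Of 24 further astrocyte genes, 19 were tested in NSC, of which 9 were called higher and 3 lower, with a median log2 fold change of 0.26. The bicarbonate transporter Slc4a4 rose from 56.1 ± 4.88 to 136 ± 9.64 CPM (SD, n = 3), a log2 fold change of 1.27 (edgeR adjusted p = 1.1e-18). The angiotensin precursor Agt (-1.43, adjusted p = 9.2e-05) and Ndrg2 (-1.36, adjusted p = 1.7e-04) were called lower, both at under 15 CPM.

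In the astrocyte libraries, 21 of these 24 genes were counted, 15 higher by 2-fold or more in the S89G-DMP1 library and 4 lower by as much. The median log2 ratio was 2.39, or 2.11 with genes at or under 3 counts in one library placed at their bound. Mlc1, a membrane protein of astrocyte end feet, had 2399 and 2 counts, and Aqp4 had 4051 and 8. Slc39a12, a zinc transporter, had 426 and 3 counts, and the potassium channel Kcnj10 had 1924 and 62. These followed the direction of Aldh1l1 and Slc1a3.

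Of 21 radial glia and neural stem cell genes, 18 were tested in NSC, with 4 called higher, 3 lower and a median log2 fold change of 0.07. The matrix protein Tnc (-0.64, edgeR adjusted p = 7.8e-19) and the receptor Notch1 (-0.26, adjusted p = 0.0011) were called lower. The transcription factor Nfib (0.24, adjusted p = 9.0e-04) was among those called higher. The markers used to identify the NSC, Nes and Sox2, were abundant and not called (adjusted p = 0.0951 and 0.2590). In the astrocyte libraries 13 of 20 counted genes of this list were higher by 2-fold or more in the S89G-DMP1 library and none was lower by as much, with a median log2 ratio of 2.07. Sox2 had 2705 and 30 counts, and Sox1 had 655 and 0, which makes it at least 192-fold higher.

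Genes that act upstream of astrocyte genes (receptors, kinases and transcription factors of gliogenesis) were called in both directions. Of 21 tested in NSC, 5 were called higher and 2 lower, with a median log2 fold change of 0.03. The receptors Bmpr1b (0.67, edgeR adjusted p = 2.8e-05) and Lifr (0.35, adjusted p = 0.0017) and the transcription factor Zbtb20 (0.45, adjusted p = 1.8e-06) were called higher. In the astrocyte libraries 4 of 23 counted genes were higher by 2-fold or more, 3 were lower by as much, and the median log2 ratio was 0.07. These shares are close to the 17.3% and 12.8% of all genes. Notch1 (2.44), Nfib (1.75) and Nfix (1.597) were higher and Rbpj (-2.11) lower in the S89G-DMP1 library.

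Genes used as markers of reactive astrocytes had negative medians in both cell types. Of 8 tested in NSC 0 were called higher by edgeR or DESeq2 (1 at an unadjusted p under 0.05) and 2 were called lower by edgeR, ceruloplasmin Cp (-1.46, edgeR adjusted p = 4.3e-12) and the annexin partner S100a10 (-0.39, adjusted p = 2.8e-05), with a median of -0.25. In the astrocyte libraries 7 of 21 counted genes were higher by 2-fold or more and 10 were lower by as much, with a median of -0.27. Complement C3 (3.04) and the sphingosine phosphate receptor S1pr3 (3.85) were higher in the S89G-DMP1 library, while Aspg had 3 counts there and 504 in the WT library.

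Relatives of the core genes in the same protein families were called in both directions. Of 13 tested in NSC, 2 were called higher and 3 lower, with a median log2 fold change of -0.10. The neutral amino acid transporter Slc1a5 was higher (0.67, edgeR adjusted p = 8.1e-04), and S100a13 (-0.998, adjusted p = 0.0102), S100a11 (-0.70, adjusted p = 0.0171) and S100a10 were lower, the opposite sign to S100b. DESeq2 called 1 higher and 1 lower, as did edgeR without WT replicate 3. Without S89G-DMP1 replicate 1 edgeR called 1 lower, and without S89G-DMP1 replicate 3 it called 1 higher. In the astrocyte libraries 1 of 19 counted relatives was higher by 2-fold or more and 7 were lower by as much. The muscle filament gene Des (-4.50), the transporters Slc1a6 (-4.29) and Slc1a5 (-2.57) and the filament gene Synm (-2.56) were lower in the S89G-DMP1 library, in which Slc1a2 and Slc1a3 were higher.

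Of 11 further genes of glutamate and glutamine handling, 9 were tested in NSC and only pyruvate carboxylase Pc was called (0.34, edgeR adjusted p = 0.0101), with a median log2 fold change of 0.08. This call was lost with DESeq2, with limma on the TPM values and without WT replicate 2. In the astrocyte libraries 2 of 10 counted genes were higher by 2-fold or more and 2 were lower by as much. These shares are not far from the 17.3% and 12.8% of all genes. The glutamine transporters Slc38a3 (6.25) and Slc38a1 (2.86) were higher in the S89G-DMP1 library, and the cystine-glutamate exchanger Slc7a11 (-4.97) and the transaminase Got1 (-1.10) were lower.

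**Figure D4:**
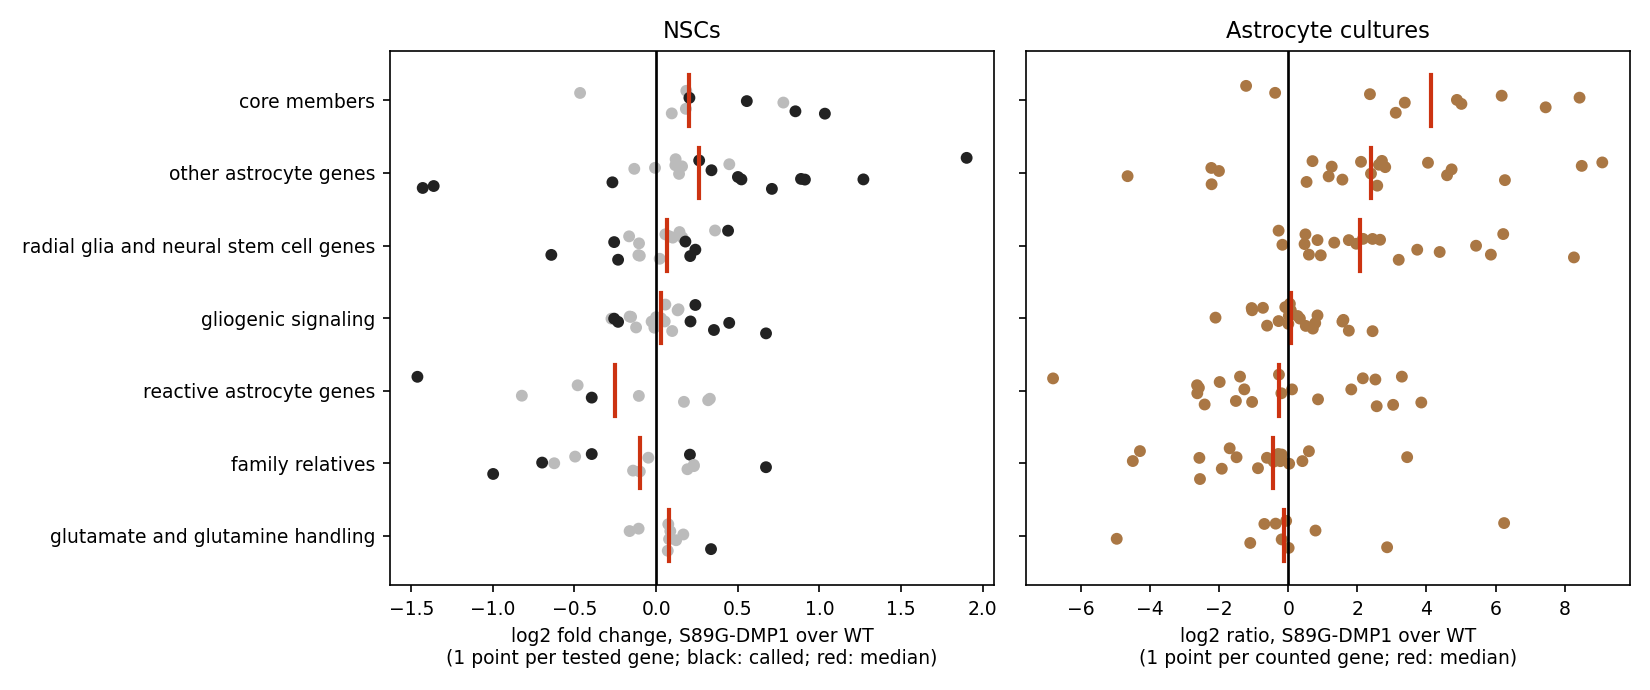
Each point is 1 gene of a list, with the log2 fold change in NSC (left, black where called) or the log2 ratio in the astrocyte libraries (right) on the horizontal axis, S89G-DMP1 over WT, and a red bar at the list's median. The medians of the core genes are 0.20 in NSC and 4.13 in astrocytes, those of the further astrocyte genes 0.26 and 2.39, and those of the reactive genes -0.25 and -0.27.

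Some genes overlap the core genes on the opposite strand, and the use of strand in counting is not given in the sources used here. The largest counts of such a gene with shared exons were 3 in an NSC library (Gm15756, over Aldh1l1) and 8 in an astrocyte library (Teddm2, over Glul). Hopxos, antisense to Hopx, had at most 1 and 4 counts, far below Hopx itself in the libraries where Hopx was counted.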

How the data were processed

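The authors deposited read counts per gene for 6 NSC and 2 astrocyte libraries, with TPM for NSC and FPKM for astrocytes. The submitters' processing notes name HISAT2, StringTie and featureCounts with build GRCm38 for NSC, and TopHat2 2.0.9 and Bowtie2 2.0.6 for astrocytes. Settings and strandedness are not given in the sources used here. The raw counts were analysed as deposited, and the TPM and FPKM of the authors served only as alternatives and to recover transcript lengths.

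Groups came from the titles. NSC counts were filtered (filterByExpr), scaled by TMM and tested with edgeR 4.0.16 (quasi-likelihood, Benjamini-Hochberg over all genes, adjusted p under 0.05) in R 4.3.3, with limma 3.58.1 and DESeq2 1.42.0 for alternatives. Fits were tested on simulated data. The astrocyte libraries, 1 per genotype, were compared by TMM-scaled log2 ratios with a prior count of 2, kept to genes that reached 10 counts in one or both, and a fold of 2 was taken as the limit. Ratios of counts carry 95% intervals for counting error only. For lower bounds of a fold, a library at 3 counts or fewer was set to a floor of 3 counts. Libraries of the same genotype differed slightly beyond counting noise (chi-square per gene 1.07 to 1.51 over 11136 genes). Technical replicates can also differ in this way, so it does not show that the libraries came from separate mice. All were entered in the fit as separate libraries.

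The members and the 14 other lists were chosen with earlier results of these data known. All members were named, and from each other list at most the 4 called genes with the largest change (NSC) or the 4 with the largest ratio and at least 50 counts (astrocytes). Some genes that this rule would name are not reported here. Gene names were matched for 47224 of 47729 and 39973 of 40562 identifiers through GENCODE M21. Start-site windows came from RefSeq (GRCm38.p6). The NSC libraries were the shallower ones (2354615 to 2588130 counts against 13016924 and 14008670), which limits the precision for Gfap, S100b, Clu and Hopx in NSC.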

Additional observations from a re-analysis of the deposited data

Results flagged for a closer look

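Glul and S100b went in opposite directions in the 2 cell types. In NSC every S89G-DMP1 library was above every WT library for both genes, while in the astrocyte libraries the S89G-DMP1 library was the lower one, with a log2 ratio of -0.38 for Glul and -1.22 for S100b. The difference between cell types was not tested, since the astrocyte comparison has 1 library per genotype and comes from another table. Neither gene passed the test in NSC, and S100b rested on 30 and 64 counts in the astrocyte libraries. Clu also had opposite signs (-0.47 in NSC and 2.36 in the astrocyte libraries), but its NSC groups overlapped. The astrocyte libraries also differed in fibroblast, mural and sex-linked genes, whose part in these values was not tested.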

How the results depend on the processing

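The members' log2 values kept their direction in all 134 NSC values and all 68 astrocyte values under the alternatives (other scalings, filters, DESeq2, limma on TPM, prior count, FPKM, libraries left out), and 125 of the 134 NSC values kept their side of the threshold. The number of members called higher in NSC was 4 as reported, 1 (Aldh1l1) with limma on log2(TPM + 1) and 1 with limma on log2(TPM + 0.1), and 4 to 6 with 1 library left out (5 without WT replicate 1 and 6 without WT replicate 3). The TPM values of Fabp7 and Hopx spread widely between libraries of a genotype. The number called lower was 0 throughout. The number of members at least 2-fold lower in astrocytes was 1 as reported and 0 with library size alone, 0 with log2(FPKM + 1) and 0 with log2(FPKM + 0.1). The further astrocyte genes called lower in NSC were 3, 2 with DESeq2 and 1 with at least 10 counts in every library. With limma on log2(TPM + 1) and log2(TPM + 0.1) they were 1 and 0, and those called higher went from 9 to 4 and 3. Both limma fits called 0 radial glia genes higher (4 with edgeR) and 0 reactive genes lower (2 with edgeR). They also called 0 gliogenic genes (5 higher and 2 lower with edgeR) and 0 relatives (2 and 3 with edgeR). Over all genes, 792 were called higher and 981 lower, against 348 and 503 with DESeq2, 38 and 107 with limma on log2(TPM + 1), and 31 and 85 on log2(TPM + 0.1). The cause was not tested. The replicate numbers shared by the genotypes did not pair the NSC samples (correlations of deviations 0.028, -0.010 and -0.017). With a replicate block 829 genes were called higher and 1016 lower, and the members called were 4 higher and 0 lower. Exon length in place of implied length, chosen after seeing the data, changed the order of some levels. Depth limits Gfap in NSC, and the single libraries limit every astrocyte value.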
